A study of Mus musculus with 6 samples.

Results

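DES epithelial cluster 9 was a group of 190 uterine epithelial cells from mice given diethylstilbestrol (DES), a synthetic estrogen, as newborns. Its members were the cells that the deposited annotation numbers 9 in the clustering of DES epithelial cells and that had a column of counts. They made up 190 of 4608 clustered DES epithelial cells, or 4.12% (exact Clopper-Pearson 95% interval, 3.57 to 4.74), and were compared with the 4418 cells of the other 15 DES clusters. The cluster stood out by immediate early genes. Fos was at 2519 CPM (UMI counts, that is distinct RNA molecules, scaled to the same total in every group) against 67.7 in the other clusters, Jun at 1412 against 111 and Atf3 at 414 against 7.04.

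The animals were CD-1 female mice killed at 12 months of age. Each had received subcutaneous corn oil (CO) or DES at 1 mg/kg/day on neonatal days 1 to 5, and DES mice of this model live in persistent estrus, whereas CO mice were taken in estrus. The single-cell data were 1 CO library pooled from 2 uteri and 1 DES library pooled from 4, and cells cannot be assigned to mice, so that cluster 9 was 1 sample and its values carry no test. The spatial data were 4 frozen sections, 2 CO and 2 DES, each from a different mouse. Tissue for single cells was dissociated in trypsin on ice, then at room temperature and then in a warm bath, whereas the sections were not dissociated. Basal cells, here cells in which Krt14 and Trp63 each had more than 1 count, had been taken out before the DES epithelial cells were clustered.

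Immediate early genes are switched on within minutes of a stimulus by transcription factors that are already present in the cell, so that no new protein is needed. Many of their products are transcription factors themselves, such as the FOS and JUN proteins that pair to form AP-1, and others are phosphatases, RNA decay factors and signalling inhibitors that shut the response down again. In the uterus, estrogen, growth factors, wounding and the handling of tissue are all known to induce them.

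In all, 32387 CO cells and 16312 DES cells had counts, at a median depth of 6779 and 10153.5 UMIs. Cells of cluster 9 held between 6735 and 196862 UMIs, with a median of 23259, close to the median of 24798 in the other DES clusters and of 23458 in the 2583 clustered CO epithelial cells. Mitochondrial genes took a median of 7.90% of UMIs in cluster 9, below the range of 8.89% to 13.2% over the medians of the other 15 clusters. Scrublet called 1 cell of cluster 9 a doublet, and 1 of its barcodes was also used in the CO library, out of 180 barcodes shared by the libraries. The 4 sections held between 9117099 and 12506177 UMIs.

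Epithelial markers in cluster 9 were close to their levels in the other clusters. The paper had limited this clustering to cells marked by the epithelial gene Krt18, so these values describe the cells and do not test the label. Epcam, the epithelial adhesion molecule, was at 868 CPM against 803 in the other clusters, with at least 1 UMI in each of the 190 cells. Over 8 epithelial markers the median ratio of cluster 9 to the other cells was 1.05, with the simple-epithelial keratins Krt8 at 1.04 and Krt18 at 1.24. Only 1 of the 8 passed 2-fold, beside 2.66% of all genes compared, namely the tight junction gene Cldn4, at 194 CPM against 43.1. Cldn4 reached the minimum of 50 CPM only in cluster 9 and so could enter only as higher. After every cell was thinned to 3000 UMIs, Epcam was seen in 94.2% of cluster 9 cells (95% interval, 89.9 to 97.1), in 90.3% of the other DES epithelial cells and in 9.86% of DES mesothelial cells, whose median depth was 12329 UMIs. Top2a, the DNA topoisomerase of dividing cells, was the other marker given for the cluster, and it was in a minority of the cells. Only 53 of 190 cells held a Top2a UMI, and 10 of them held 57.1% of its UMIs.

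Markers of most other cell types were low in both groups of cells, and the myeloid and red cell sets were the highest of those given here. Of the 9 stromal markers 2, Dpt and Foxl2, had no UMI in cluster 9, and 1 reached 50 CPM, with a ratio of 1.28. The 9 summed to 152 CPM against 123 in the other clusters, which ranged from 93.9 to 237, and cluster 9 had rank 3 of 16. Endothelial markers summed to 3.88 CPM against 3.33, lymphocyte markers to 1.16 against 0.972 and mesothelial markers to 37.4 against 34.8. Myeloid markers summed to 1113 CPM against 585, of which Cd74 alone gave 1065 and 515, and the macrophage genes Lyz2 and Adgre1 were at 10.3 and 0 CPM in cluster 9. The 5 red cell markers, whose transcripts epithelial cells do not make, summed to 553 CPM against 556. Myocyte markers summed to 22 CPM against 14.8, plasma cell markers to 4.78 against 3.24, pericyte markers to 8.54 against 10.0 and ciliated cell markers to 6.08 against 10.4.

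Of 2900 genes that reached 50 CPM in cluster 9 or in the other cells, 77 were at least 2-fold higher in cluster 9 (2.66% of the genes compared) and 14 at least 2-fold lower (0.483%). The clusters were formed on these same counts, so these figures describe the cluster and test nothing. The median ratio over the 2900 genes was 1.00. Of the 77 higher genes, 50 reached 50 CPM only in cluster 9 and so could enter only as higher, and 27 of the 2656 genes with 50 CPM in the other cells (1.02%) were higher. In 65 of the 77 the level in cluster 9 was the highest of the 16 clusters, and 15 exceeded 10-fold. Just inside the 2-fold limit lay Ifit1 at 2.05, Runx1 at 2.06 and Cd74 at 2.07, and just outside lay Hsp90aa1 at 1.98, Vpreb3 at 1.99 and Top2a at 1.99.

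The list of 25 immediate early genes held the core of the pattern. Of 16 members that reached 50 CPM, 14 were at least 2-fold higher and none lower, beside 2.66% and 0.483% of all genes, with a median ratio of 22.7. For 8 of the 16 the minimum was met only in cluster 9, so that these could enter only as higher, and the median includes them. The list was chosen with earlier results of these data known, and the clusters were formed on these same counts. The contrast with all genes therefore describes the cluster and tests nothing. The exceptions were Klf4, at 434 CPM against 353, and the AP-1 subunit Fosl2, at 85.5 against 71.0. Summed over the list, cluster 9 reached 11669 CPM against 1402 in the other cells, and the other 15 clusters ranged from 1246 to 2046.

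The AP-1 subunits Fos, Jun, Jund and Junb were the most abundant members. Fos (chromosome 12, 85473890 to 85477273, plus strand, GRCm38) was 37.2 times as high in cluster 9 as in the rest (exact conditional 95% interval, 36.3 to 38.1), and the next cluster, number 14, had 282 CPM. Fosb (chromosome 7, 19302696 to 19310051, minus strand) was at 429 CPM against 7.49. Jun (chromosome 4, 95049034 to 95052222, minus strand) was 12.8 times as high (12.5 to 13.1). Its relative Junb was at 996 CPM against 107, and Jund, the subunit that most cells make without a stimulus, at 1133 against 392. Atf3 (chromosome 1, 191170296 to 191218039, minus strand), a stress-induced factor that dimerises with JUN proteins, had the largest ratio of all, 58.8 (54.9 to 63). The AP-1 subunits thus differed in the size of the ratio, with Jund the smallest among those past 2-fold.

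Other immediate early transcription factors followed. Egr1, a zinc finger factor, was at 544 CPM against 11.4. Nr4a1, an orphan nuclear receptor, was at 170 CPM against 4.06. Klf6, a zinc finger factor of the Krüppel-like family, was at 573 CPM against 23.3 and was the gene that most exceeded its next cluster, by 15.1-fold over cluster 15. The rarer relatives Egr2, at 22.4 CPM against 0.685, and Nr4a3, at 8.92 against 0.224, stayed under the 50 CPM minimum in both groups and were not counted. Myc, a growth-promoting factor, was also under it, at 38.4 CPM against 33.9.

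Inhibitors of signalling and RNA decay were also among the 20 leading genes. Dusp1, a phosphatase that inactivates MAP kinases, was at 201 CPM against 4.24, a ratio of 47.5, and Dusp5, which acts on ERK, at 87.4 against 4.53. Socs3, an inhibitor of cytokine receptors, was at 69.4 CPM against 3.24. Zfp36 promotes the decay of messenger RNAs with AU-rich elements, among them immediate early transcripts, and was at 508 CPM against 24.3. Ppp1r15a, which restores translation after stress by directing a phosphatase to eIF2α, was at 253 CPM against 12.7. Each of these 5 genes was highest in cluster 9 among the 16 clusters.

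Secreted factors and smaller response genes completed the leading group. Cyr61, a matrix-bound growth regulator and target of YAP, was at 935 CPM against 20.8. Hbegf, a ligand of the EGF receptor, was at 102 CPM against 14.5. Ier2 was at 634 CPM against 75, Ier3 at 461 against 54.2 and Phlda1 at 203 against 17.9. For 13 of the 20 genes with the largest ratios the next-highest cluster was number 14, the second-smallest of the clusters with 67 cells, and for 3 it was number 7. Against each of the 15 clusters separately, all 20 were at least 2-fold higher in cluster 9. Over all genes compared, between 81 of 2913 (against cluster 2) and 169 of 2932 (against cluster 8) were. The 20 had been chosen by their ratio to these clusters pooled, so this largely restates the choice and adds no support.

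The inducible chaperones had the largest ratios of the heat shock list. Hspa1a, the inducible form of HSP70, was at 266 CPM against 18.5, its near-identical copy Hspa1b at 487 against 86.7, and the co-chaperone Dnajb1 at 238 against 34.8. Reads of Hspa1a and Hspa1b may be shared between the copies, so that their separate values are uncertain. Of the 9 heat shock genes that reached the minimum, these 3 were past 2-fold, against 2.66% of all genes, but Hspa1a and Dnajb1 reached it only in cluster 9 and so could enter only as higher. All 9 had a ratio above 1, with a median of 1.53, and the 11 genes of the list summed to 4666 CPM in cluster 9 against 2687 in the other cells, the highest of the 16 clusters, with 3208 in cluster 7 next. The inducible HSP90 gene Hsp90aa1 had a ratio of 1.98, the constitutive Hspa8 had 1.53, and the mitochondrial chaperones Hspd1 and Hspe1 had 1.05 and 1.02.

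**Figure D1:**
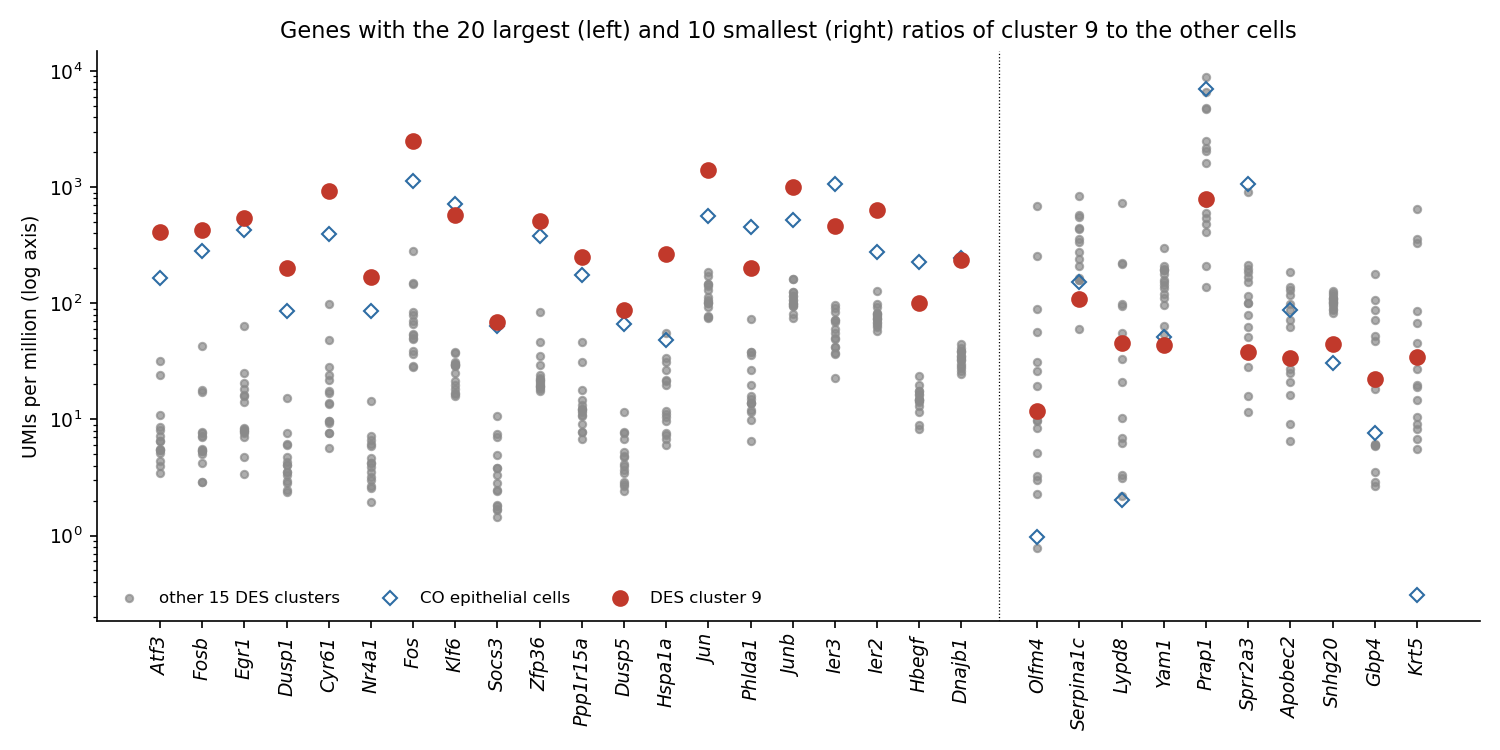
Level of the 20 genes with the largest and the 10 with the smallest ratio of cluster 9 to the other clusters, in CPM on a log axis (red, cluster 9; grey, each of the other 15 DES clusters; blue diamonds, CO epithelial cells). On the left cluster 9 lies above every other DES cluster, as for Fos at 2519 against at most 282, while on the right the other clusters spread widely, as for Olfm4 from 0.788 to 685.

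Short promoter segments of the leading genes are shown because immediate early genes are classically controlled from such elements. RefSeq windows (GRCm38.p6) were held for 16 of the 20 leading genes, with 17 start sites, and the 250 bases before each start were searched on both strands. The motifs were the cyclic AMP response element TGACGTCA, the AP-1 site TGANTCA, the CArG box bound by serum response factor and the heat shock element TTCNNGAA, which overlap one another in no segment printed. Capitals mark the motif.
Dusp1, chr17:26508597-26508626, minus strand, cyclic AMP response element: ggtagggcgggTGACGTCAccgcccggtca
Ppp1r15a, chr7:45526269-45526291, minus strand, cyclic AMP response element: cgcctctccggTGACGTCAgcac
Zfp36, chr7:28379267-28379296, minus strand, CArG box: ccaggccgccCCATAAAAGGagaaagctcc
Dusp5, chr19:53529058-53529087, plus strand, a pair of adjoining CArG boxes: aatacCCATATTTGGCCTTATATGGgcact
Cyr61, named Ccn1 in RefSeq, chr3:145650049-145650078, minus strand, heat shock element: atgtttgagaaTTCTAGAAcgcgccgacag
All 5 segments lie before the RefSeq start of their gene, and those of Dusp1 and Zfp36 lie inside the longer spans that GENCODE gives these genes. The cyclic AMP response element was in 2 of the 17 leading windows and in 1.55% of 32851 windows genome-wide, and the CArG box in 2 and in 1.47%. The heat shock element was in 1 of 17 against 7.17% of all windows, and the AP-1 site in 0 of 17 against 6.75%. Over 2845 windows of the genes compared here, the shares were 2.85% for the cyclic AMP response element, 1.34% for the CArG box, 6.01% for the heat shock element and 4.11% for the AP-1 site. A match is a description of the letters, and its absence from such a short window says nothing about a factor.

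The summed immediate early share was high in every cell of the cluster. The 25 immediate early genes took a median of 1.29% of a cell's UMIs in cluster 9, with a 5th to 95th percentile of 0.431% to 2.5%, against a median of 0.127% in the other cells and cluster medians of 0.105% to 0.142%. No cell of cluster 9 lay below the 95th percentile of the others, 0.238%. Conversely, 70 of the 4418 other cells (1.58%) lay above the 5th percentile of cluster 9, among them 19 in cluster 5, 18 in cluster 7 and 10 in cluster 10, and 6 lay above its median. Only 16 cells of cluster 9 lay above the highest share among the other cells, 2.29%. Most of the cluster therefore lay within the range of the other cells, though few of those cells reached so high.

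Single genes differed in how many cells held them. Fos was present in all 190 cells, from 1.77 to 73.2 UMIs per 10000 with a median of 25.8, against a median of 0.181 in the other cells. Jun ran from 0.905 to 62.1 with a median of 16.7, against 0.751. After thinning to 3000 UMIs, Fos was seen in 97.9% of cluster 9 cells (94.7 to 99.4), 12.5% of the other DES epithelial cells, 65.1% of CO epithelial cells and 23.6% of DES mesothelial cells. Without thinning these shares were 100%, 54.8%, 95% and 46.3%. Atf3 was seen in 56.8% of thinned cells of cluster 9 (49.5 to 64.0) against 1.92% of the others (1.54 to 2.38). Other leading genes were in fewer cells. Hspa1a had a UMI in 127 of the 190 cells and in 32.6% after thinning (26 to 39.8), and Socs3 had one in 85 and in 12.1% (7.83 to 17.6), with 57% of its UMIs in 10 cells. All shares are of cells with a UMI, and their intervals cover counting error only.

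The same genes were common in CO epithelium. Over all clustered CO epithelial cells Fos was at 1133 CPM, Jun at 561 and Atf3 at 166, and all 20 leading genes were at least 2-fold higher there than in the other DES clusters. The 20 genes had been chosen by their ratio to these same other DES clusters, so this count in part restates the choice. No share over all genes is given for it or for the next count. For 17 of the 20, at least 1 of the 15 CO clusters equalled or exceeded cluster 9. The exceptions were Fos, which reached 2372 CPM in CO cluster 13, Jun, which reached 1292 in CO cluster 3, and Hspa1a, which reached 80.8 in CO cluster 0. Ier3 was above the level of cluster 9 in all 15 CO clusters. The highest CO cluster was number 7 for 10 of the genes and number 3 for 7. With 1 library of pooled mice for each treatment, the treatment and the library cannot be told apart in this comparison.

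Medians of the share per cell ran from low to high over the CO clusters. The median immediate early share was 1.29% in CO cluster 0, 1.5% in CO cluster 3 and 1.56% in CO cluster 7, at or above the 1.29% of DES cluster 9. In CO clusters 11 and 14 it was 1.25% and 1.18%, in CO clusters 5, 12 and 13 it was 0.366%, 0.666% and 0.727%, in CO clusters 1 and 2 it was 0.205% and 0.200%, and over all CO epithelial cells 0.371%. Within the DES library the 479 basal cells that had been kept out of the clustering had a median of 1.17% but a wider spread, with a lower quartile of 0.162% against 0.787% in cluster 9. These basal cells were only part of the 647 DES epithelial cells outside the clusters, whose median was 1.29%. DES myeloid cells had a median of 1.41%, with a lower quartile of 0.846%, and DES mesothelial cells a median of 0.142%. High shares were thus found in cells of several types and in both libraries, and the part of dissociation in them was not tested. The median mitochondrial share was 7.30% in CO cluster 3, 8.06% in CO cluster 0 and 15.1% in CO cluster 7, beside 7.90% in cluster 9.

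**Figure D2:**
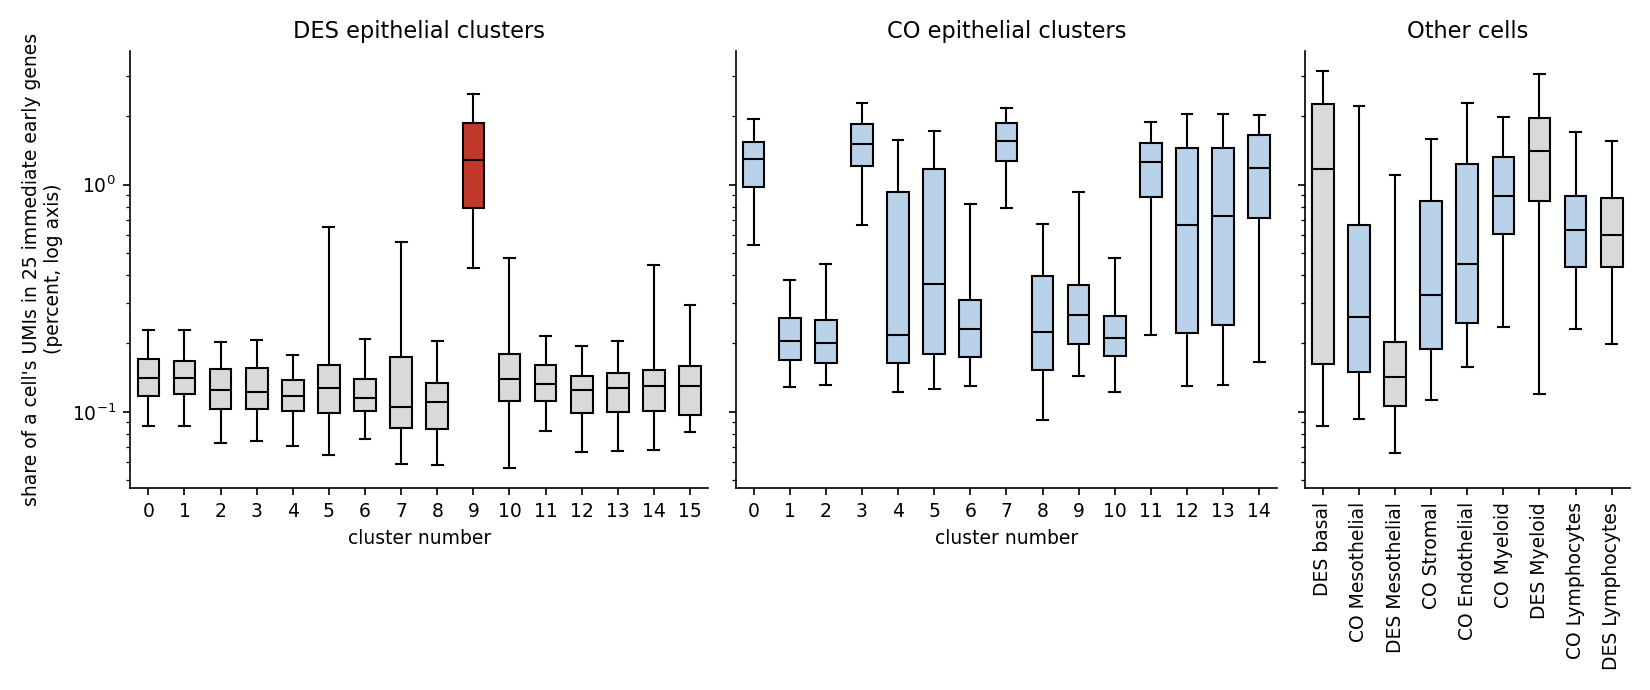
Share of each cell's UMIs in 25 immediate early genes, in percent on a log axis, for the 16 DES epithelial clusters, the 15 CO epithelial clusters and other cell groups (line, median; box, quartiles; whiskers, 5th and 95th percentiles). Cluster 9, in red with a median of 1.29%, stands above the other DES clusters (0.105% to 0.142%) and beside CO clusters 0, 3 and 7.

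Across the 190 cells the leading genes varied largely together. Of 190 pairs among the 20 genes, 173 had a Pearson r above 0 and 110 above 0.3, with a median of 0.32, computed on log2(UMIs per 10000 + 1) over cells of the same library. Fos and Fosb gave 0.68, Jun and Junb 0.66 and Fos and Egr1 0.62. The Notch effector Hes1, which was not in the immediate early list, gave 0.66 with Jun. The chaperone Hspa1a stood apart, with a median of -0.09 against the 18 leading genes that are not chaperones and -0.34 against Ier2, while it gave 0.77 with its copy Hspa1b and 0.33 with Dnajb1. Cd74 and Fos gave -0.01. The immediate early share had an r of -0.35 with the log of a cell's UMIs and of -0.28 with its mitochondrial share, so that depth and mitochondrial content moved with it within the cluster. Their part in these correlations was not tested.

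**Figure D3:**
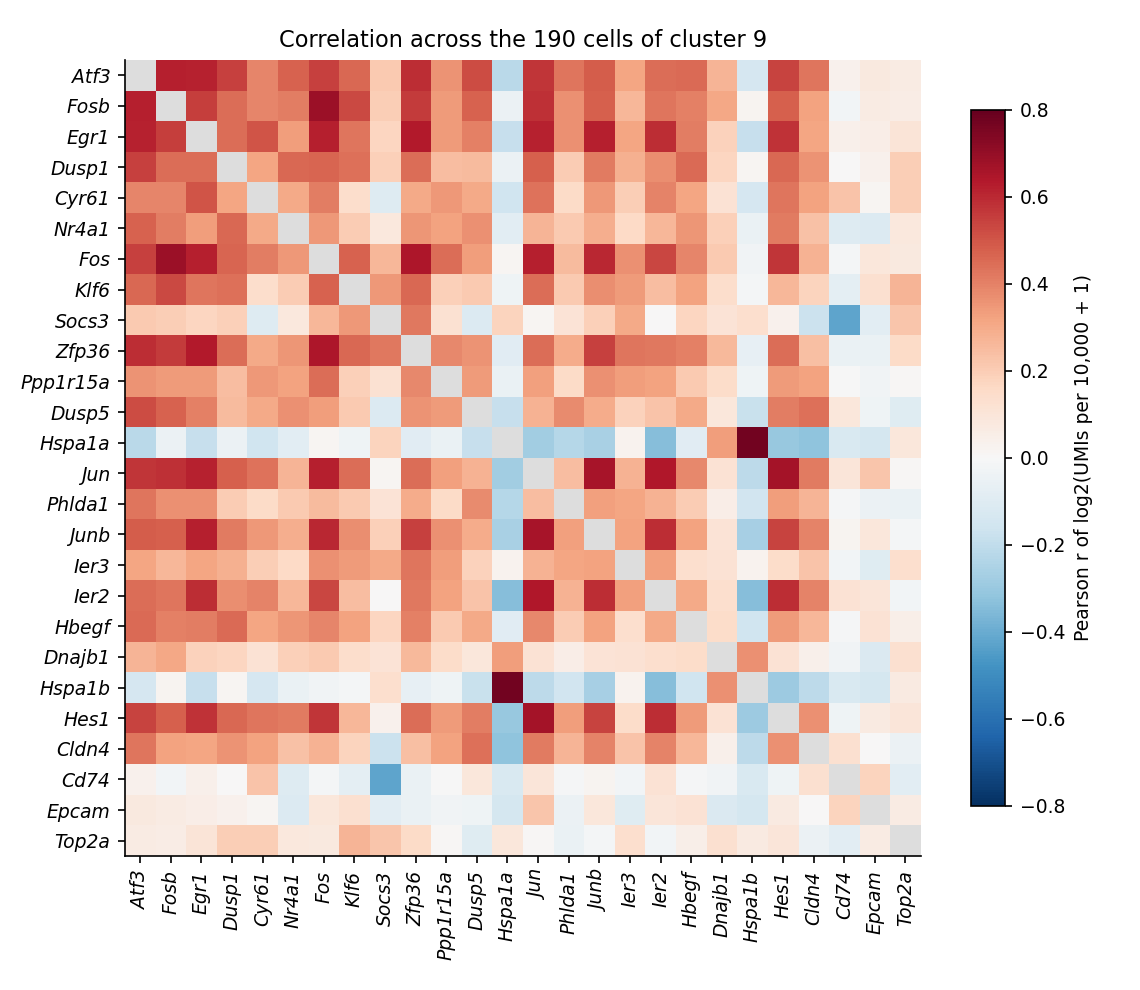
Pearson correlation of pairs of genes across the 190 cells of cluster 9, on log2(UMIs per 10000 + 1) (red, positive; blue, negative). The immediate early genes form a positive block with pairs up to 0.68, whereas Hspa1a pairs with Hspa1b at 0.77 and has a median of -0.09 with 18 other leading genes.

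The deposited annotation also numbers these cells in a clustering of CO and DES epithelial cells combined. There 129 of the 190 cells (67.9%) were in integrated cluster 16, which held 148 cells, all from the DES library. The other 61 were spread over 9 integrated clusters, among them 16 cells in number 7, 14 in number 5 and 11 in number 18. This division was examined after the data were seen. The cells in integrated cluster 16 had a median of 20948 UMIs and an immediate early share of 1.43%, and those outside it had 65272 UMIs and 0.783%. The median mitochondrial share was 7.30% inside and 10.5% outside. The value outside lay within the 8.89% to 13.2% of the other DES clusters, so the low mitochondrial share was not a trait of the whole cluster.

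Cluster 9 was thus not uniform. Fos differed little across that division, at 2702 CPM inside integrated cluster 16 and 2325 outside, and Hspa1a was at 261 and 271. Dusp5 was at 125 inside and 46.8 outside, whereas Socs3 was at 35.3 inside and 106 outside. Genes of dividing cells differed more across the division than the genes with values given here. Top2a was at 11.8 CPM inside and 111 outside. Ube2c, which drives the exit from mitosis, was at 15 inside and 214 outside. The proliferation marker Mki67 was at 3.25 inside and 34.0 outside. The 19 cells that fell in integrated clusters 7 and 8 held most of these UMIs, 337 of the 415 of Top2a and 104 of the 127 of Mki67 outside. Among cells of cluster 9, these were the integrated clusters with the highest median share of UMIs in genes of G2 and M phase. The medians were 0.521% and 0.972%, and at most 0.193% in the rest. High levels of division genes in the 19 cells therefore restate this grouping and are no separate result. In those 19 cells Top2a reached 266 CPM, Ube2c 590 and Mki67 82. In the other 42 cells outside, Top2a was at 31.6 CPM, Ube2c at 20.7 and Mki67 at 9.32, beside 29.96, 43.8 and 7.58 in the other DES clusters.

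**Figure D4:**
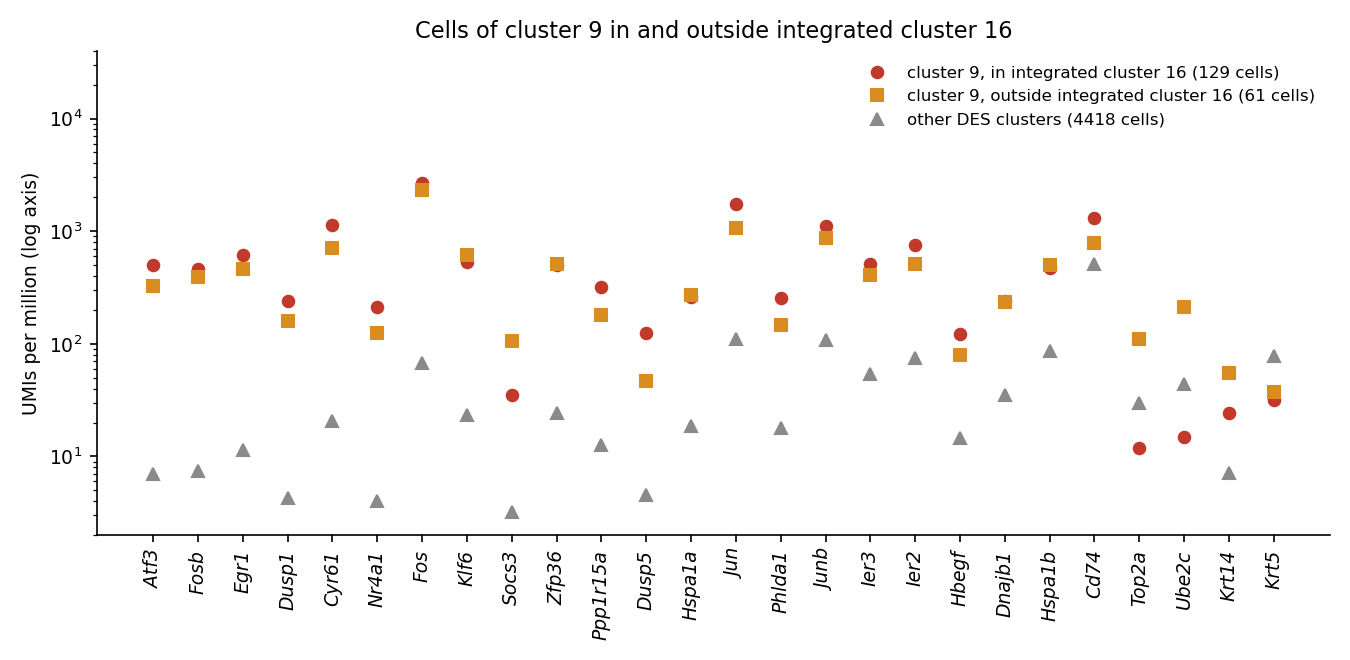
Level of the leading genes and of chaperone, antigen presentation, cell division and basal genes, in CPM on a log axis, in cluster 9 cells inside (129 cells) and outside (61 cells) integrated cluster 16 and in the other DES clusters. Immediate early genes such as Fos (2702 inside and 2325 outside) and Jun (1735 and 1067) are above the other DES clusters in both sets, whereas Top2a is at 11.8 inside and 111 outside.

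Cell cycle genes differed less over the cluster as a whole. Top2a was at 59.7 CPM against 29.96, a ratio of 1.99. It ranked second to the 133 CPM of cluster 6, where 196 of 260 cells held a UMI, and the median over the 15 other clusters was 13.9 CPM, which gave a ratio of 4.31. Of the 12 genes of the G2 and M phase list that reached the minimum, 1 was past 2-fold, Ube2c at 111 CPM against 43.8, which reached the minimum only in cluster 9, and the median ratio was 1.35. Of the 3 S phase genes none was. Of 4 genes that restrain division and reached the minimum, 3 were past 2-fold, against 2.66% of all genes, and 2 of them, Cdkn2a and Cdkn1a, reached it only in cluster 9 and so could enter only as higher. Btg2, an antiproliferative immediate early gene, was at 458 CPM against 93.6, the p16 and p19 locus Cdkn2a at 52.6 against 21.3, and the p21 gene Cdkn1a at 83.8 against 37.3. Thinned to 3000 UMIs, 5.79% of cluster 9 cells (2.93 to 10.1) and 4.17% of the others (3.59 to 4.80) held a Top2a UMI, and thinned to 5000 UMIs 11.6% (7.40 to 17) and 6.98% (6.24 to 7.78) did. Without thinning the shares were 27.9% and 20.9%. An Mki67 UMI was held by 4.21% (1.84 to 8.13) and 1.35% (1.03 to 1.74) at 3000 UMIs, and by 4.74% (2.19 to 8.80) and 2.34% (1.91 to 2.84) at 5000 UMIs. Without thinning the Mki67 shares were 17.9% and 9.30%. These intervals cover counting error over the cells of 1 library and compare nothing between clusters.

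Signalling pathways contributed single genes. Of the Notch list 1 of 2 genes was past 2-fold, Hes1, a transcriptional repressor, at 913 CPM against 141. Of the TGF-beta and BMP list 2 of 4 were, the inhibitors of basic helix-loop-helix factors Id3 at 213 CPM against 46.4 and Id1 at 313 against 86.4, and no ligand of that list reached the minimum. Of the YAP targets 2 of 4 were, Cyr61 and the YAP feedback gene Amotl2, the latter at 78.0 CPM against 24.4. Of the EGF family 1 of 2 was, Hbegf. Of the NF-kB and inflammatory list 1 of 2 was, Nfkbiz, a nuclear cofactor of NF-kB, at 143 CPM against 52.3. The share over all genes was the 2.66% given above, and of the genes named here Id3, Cyr61, Amotl2 and Hbegf reached the minimum only in cluster 9 and so could enter only as higher.

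None of the 8 tested genes of the 3 Wnt lists (ligands, receptors, targets and modulators) was past 2-fold. The estrogen receptor gene Esr1 was at 203 CPM against 218 and the progesterone receptor gene Pgr at 78.1 against 97.5. Of 11 estrogen-responsive genes that reached the minimum, 1 was higher (Fos) and 2 lower, with a median ratio of 1.09, beside 2.66% higher and 0.483% lower over all genes. Of the other stress lists, 2 of 6 unfolded protein genes were past 2-fold (Dnajb9 at 2.36-fold and Atf4 at 2.28-fold), 2 of 5 p53 targets (Btg2 and Cdkn1a) and 0 of 16 antioxidant genes, beside the same 2.66% over all genes. Of these, Dnajb9 and Cdkn1a reached the minimum only in cluster 9 and so could enter only as higher. Oxidative phosphorylation genes had 0 of 17 past 2-fold and a median ratio of 0.874, mitochondrially encoded genes 0 of 12 and 0.825, and cytosolic ribosomal protein genes 0 of 25 and 1.06. Neat1, a nuclear RNA, was at 309 CPM against 99.8, the only 1 of 4 nuclear long RNAs past 2-fold.

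Genes of antigen presentation on MHC class II were higher in cluster 9, though other clusters exceeded it. All 4 that reached the minimum were past 2-fold, beside 2.66% of all genes, and H2-Eb1 reached it only in cluster 9 and so could enter only as higher. Cd74, the invariant chain, was at 1065 CPM against 515, H2-Aa at 156 against 66.8, H2-Ab1 at 153 against 68.7 and H2-Eb1 at 103 against 40.0. Summed over 7 genes, cluster 9 was at 1553 CPM, at rank 4 of the 16 clusters, and the others ranged from 62.8 to 2384, with cluster 7 the highest. CO epithelium was at 53.4 CPM. Thinned to 3000 UMIs, 72.6% of cluster 9 cells (65.7 to 78.8) held a Cd74 UMI against 38.9% of the other DES epithelial cells (37.4 to 40.3), 6.52% of CO epithelial cells and 25.8% of DES mesothelial cells.

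The 8 basal markers summed to 281 CPM in cluster 9 against 221 in the other cells, at rank 5 of the 16 clusters, with 849 in cluster 5. Only Krt5 and the laminin receptor subunit Itga6, at 132 CPM against 89.9, reached the minimum. Krt5, a basal keratin, was at 34.4 CPM against 78.0, but cluster 5 had 645, and against the median of the 15 other clusters, 19.9 CPM, cluster 9 was higher. Its partner Krt14 was at 39.3 against 7.08, with 87.2% of its UMIs in 10 cells, and the basal keratin Krt15 was at 37.9 against 8.15. Trp63, the basal master regulator, had 12 UMIs in the whole cluster. Cells with both Krt14 and Trp63 had been removed before the clustering, as given above. In the clustering of CO and DES cells combined, 3 cells of cluster 9 were in integrated cluster 8, which the paper identifies as basal cells.

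The 14 genes lower in cluster 9 differed widely among the other clusters. Olfm4, a secreted glycoprotein of epithelial stem and progenitor cells, was at 11.8 CPM against 60.9, but cluster 5 had 685 CPM and cluster 9 had rank 8 of 16. Against the median of the 15 clusters, 9.87 CPM, Olfm4 was slightly higher in cluster 9 instead, and the same turn occurred for Lypd8, Gbp4 and Krt5. Prap1, a secreted protein of uterine and gut epithelium, was at 788 CPM against 2554, with 8956 in cluster 5. Serpina1c, a protease inhibitor, was at 109 CPM against 386. Lower than in every other cluster were 4 of the 14 genes, among them Yam1, at 44.0 CPM against 148, and the noncoding RNA host gene Snhg20, at 44.2 against 105. Sprr2a3, at 38.4 CPM against 120, belongs to a family of near-identical genes, so that its counts are uncertain.

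Over 3701 genes the Pearson r of log2 CPM with cluster 9 was 0.942 for cluster 7, 0.941 for cluster 2 and 0.939 for cluster 6, and the lowest was 0.871, for cluster 13. Without the genes called higher in cluster 9, a removal that by itself raises r, the order was cluster 2 at 0.971, cluster 6 at 0.969 and cluster 7 at 0.965, so the order of the 3 changed. Against cluster 7, 92 of 2938 genes compared were at least 2-fold higher in cluster 9 and 20 lower. Against cluster 2 these counts were 81 and 8 of 2913, and against cluster 6 they were 88 and 27 of 2889.

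The sections gave the only replicated measurement of these genes, in tissue that had not been dissociated. They compare DES with CO tissue, not cluster 9 with the other DES clusters. They therefore cannot test what set cluster 9 apart. UMIs were summed over all spots of a section, 2 DES against 2 CO sections, with edgeR's quasi-likelihood test and Benjamini-Hochberg adjustment over 14098 genes. At an adjusted p under 0.05, 376 genes (2.67%) were higher and 371 (2.63%) lower in DES, 5.3% in either direction. In whole sections fewer cells of a type and less RNA per cell cannot be told apart, and the p-values measure only the spread between these 4 sections. Markers of other cell types differed in level between the CO and DES sections. In DES, 3 of 9 stromal and 6 of 7 myocyte markers were lower, and the summed level of the myocyte markers was 15289 and 17033 CPM in CO and 3870 and 4354 in DES. Basal markers summed to 163 and 316 CPM in CO and 10828 and 6908 in DES, myeloid markers to 613 and 1105 against 3472 and 3697, and plasma cell markers to 355 and 1183 against 6445 and 11520. Of single genes in these lists, 0 of 8 basal, 1 of 10 myeloid and 1 of 5 plasma cell markers passed as higher and 0 as lower. Within the DES library, Hes1 was at 1087 CPM in basal cells, Cldn4 at 266 and Junb at 1473, and Junb was at 2952 in myeloid cells. The part of these differences in cell makeup in the results below was not tested.

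Of the 20 leading genes of cluster 9, 19 passed the filter on low counts, and 1 was higher and 1 lower in DES, beside 2.67% and 2.63% of all genes. Fos was at 60.9 and 10.2 CPM in the CO sections and at 19.9 and 16.9 in the DES sections, so that the DES values lay between the CO values. Its log2 fold change was -1.18 (SE 0.82, edgeR adjusted p = 0.449), and without CO section 1 it became 0.67, so that 1 section set its sign. Jun was at 87.0 and 78.1 CPM in CO and at 97.2 and 66.7 in DES, overlapping groups (adjusted p = 0.598 by edgeR). Atf3 was at 15.3 and 16 in CO and at 13.4 and 15.8 in DES (adjusted p = 0.453 by edgeR). Fosb had between 6 and 14 UMIs in any section and was filtered out. Fos, Jun and Atf3 were lower in every section than in cluster 9, on CPM of different assays and of whole tissue.

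Junb was the gene that was higher. It was at 45.9 and 48.0 CPM in the CO sections and at 126 and 113 in the DES sections, which did not overlap (log2 fold change 1.137, SE 0.16, edgeR adjusted p = 0.0306). Ier3 was the gene that was lower, at 327 and 246 CPM in CO and 85.7 and 72.1 in DES (-2.08, SE 0.23, edgeR adjusted p = 0.0219). In the single cells, CO epithelium was above the other DES clusters for both genes. It was at 524 CPM against 107 for Junb and at 1067 against 54.2 for Ier3. All DES epithelial cells, with cluster 9 and the basal cells included, were at 249 CPM for Junb and 143 for Ier3, also below CO epithelium. For Junb this was the opposite direction to the sections. Dnajb1 was at 33.8 and 27.8 CPM in CO and 70.1 and 63 in DES and did not pass (0.90, SE 0.19, edgeR adjusted p = 0.0663). Summed over the 25 immediate early genes, the sections were at 1549 and 1241 CPM in CO and 1702 and 1543 in DES, overlapping groups.

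Of the 77 genes higher in cluster 9, 75 were tested in the sections, with 6 higher in DES (2.67% over all genes) and 2 lower (2.63% over all genes), and a median log2 fold change of 0.12 against -0.01 over all genes. The 6 were Basp1, Cdkn2a, Cldn4, Hes1, Junb and Runx1, and the 2 were Ier3 and Tsc22d1. Hes1 was at 67.7 and 60.1 CPM in CO and 220 and 226 in DES (1.60, SE 0.17, edgeR adjusted p = 0.0219). Cldn4 was at 18.6 and 34.9 CPM in CO and 163 and 116 in DES (2.18, SE 0.35, edgeR adjusted p = 0.0399). In the single cells, CO epithelium was at 221 CPM for Hes1 and 203 for Cldn4, above the other DES clusters, which were at 141 and 43.1. Over all DES epithelial cells, with cluster 9 and the basal cells included, Hes1 was at 239 CPM, above CO epithelium. Cldn4 was at 66.5 CPM in those cells, below it. For Cldn4 the CO epithelium was also above the 194 CPM of cluster 9, whereas for Hes1 cluster 9 was at 913. Without either DES section, the calls of Junb, Ier3, Hes1 and Cldn4 were lost, with adjusted p between 0.131 and 0.293 in edgeR. Their log2 fold changes over all single sections left out were 1.08 to 1.17 for Junb, -2.29 to -1.83 for Ier3, 1.49 to 1.71 for Hes1 and 1.81 to 2.67 for Cldn4.

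Of the 14 lower genes all were tested in the sections, and 1 was higher in DES and none lower, beside 2.67% and 2.63% of all genes. That gene was Olfm4, at 0.400 and 2.18 CPM in CO and at 1534 and 1340 in DES (9.94, SE 0.77, edgeR adjusted p = 0.0183), a call also lost without either DES section, while the log2 fold change with any 1 section left out was 9.17 to 11.5. Among the markers given for the cluster, Epcam was at 451 and 256 CPM in CO and 435 and 501 in DES (adjusted p = 0.780 by edgeR), and Top2a at 16 and 6.89 in CO and 8.77 and 5.77 in DES (adjusted p = 0.351 by edgeR). The 4 MHC class II genes named above did not pass either, with Cd74 at 170 and 273 CPM in CO and 872 and 2317 in DES (2.66, SE 0.56, edgeR adjusted p = 0.0687).

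**Figure D5:**
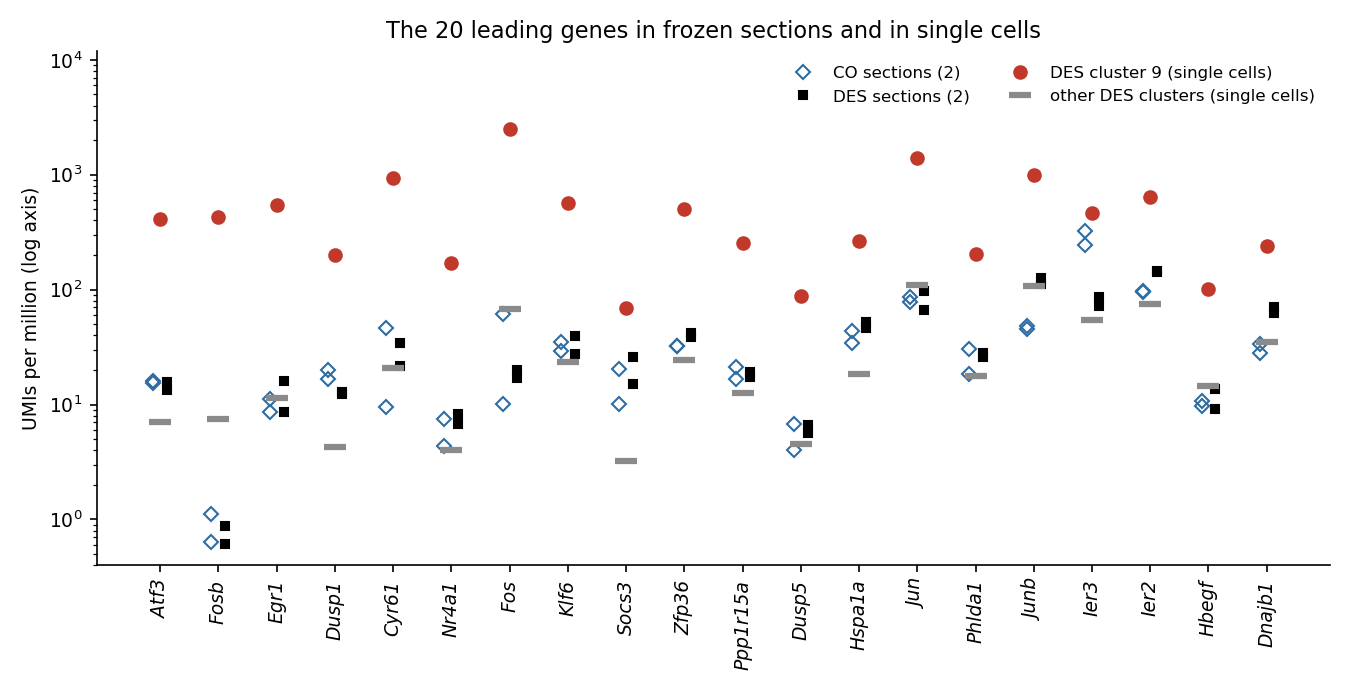
The 20 leading genes of cluster 9 in whole sections that were not dissociated, in CPM on a log axis (diamonds, 2 CO sections; squares, 2 DES sections), beside single-cell levels of cluster 9 (red) and of the other DES clusters (grey bar). The section values of Fos, 10.2 to 60.9, lie far below the 2519 of cluster 9, and Junb and Ier3 are the genes whose groups passed the edgeR test.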

How the data were processed

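Single cells were measured in 1 CO and 1 DES library and tissue RNA in 2 CO and 2 DES Visium sections of mouse uterus. The deposited values are raw UMI counts, which the authors obtained on the mm10 build with Cell Ranger 3.0.1 for cells and Space Ranger 1.2.2 for sections, and base calling with bcl2fastq 2.20.0.422. The authors had removed doublets and named cell types and clusters, which were taken as deposited. Of the cells in the deposited annotation 350 had no counts and were left out, and of 4610 clustered DES epithelial cells 4608 were used. Summed counts equalled the authors' totals in all 48699 cells.

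Levels are CPM of pooled counts of all cells in a group, over 24077 genes. Ratios have exact conditional binomial 95% intervals and shares exact Clopper-Pearson ones, both covering counting error only. A gene was compared where either group reached 50 CPM and called past 2-fold. Shares used cells thinned to 3000 UMIs (seed 20230), leaving out shallower cells. Of the other DES epithelial cells 4369, of CO epithelial cells 2562 and of DES mesothelial cells 3782 were deep enough. Mesothelial cells served as a type that should lack epithelial genes.

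The genes named were the 20 largest and 10 smallest ratios, the 10 with the largest excess over the next cluster, Top2a and Epcam, and genes of lists. Gene positions are those of GENCODE M21. The members and lists were chosen with earlier results of these data known.

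Section sums were compared with edgeR 4.0.16 in R 4.3.3 (TMM, filter for low expression, quasi-likelihood test, Benjamini-Hochberg), tested on simulated data first. Other tools were Python 3.11.15, numpy 2.4.6, pandas 2.3.3, scipy 1.17.1, scanpy 1.11.5 for Scrublet and matplotlib 3.10.9. Alternatives were DESeq2 1.42.0 and its size factors, no filter, each section left out, the replicate number as a block, other CPM minimums (20 and 100), mean counts per 10000 UMIs, the median of the other clusters, totals without the 20 most abundant genes, cells with at least 1000 UMIs and at most 20% mitochondrial UMIs, Scrublet doublets removed, thinned counts, thinning to 5000 UMIs and none.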

Additional observations from a re-analysis of the deposited data

How the results depend on the processing

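The number of genes at least 2-fold higher in cluster 9 moved with the minimum level, from 77 to 146 at 20 CPM and 50 at 100 CPM, and the number lower moved from 14 to 33 and to 9. Against the median of the other 15 clusters, 8 genes were lower, and 4 named genes turned from lower to higher, with log2 ratios of 0.25 for Olfm4, 0.45 for Lypd8, 0.30 for Gbp4 and 0.79 for Krt5. Under the other alternatives the counts ranged from 77 to 107 higher and from 12 to 20 lower. They included 2 alternatives chosen after seeing the data, the cells of cluster 9 inside integrated cluster 16 only (107 higher, 18 lower) and outside it only (80 and 12). Shares of cells with a UMI rose with the depth of thinning, and all 32 moved past their interval without thinning. The share of cells was 4.10% without doublets, and also without cells under 1000 UMIs or over 20% mitochondrial UMIs. No clustered DES epithelial cell had fewer than 1022 UMIs, so the second filter acted on mitochondrial share only and kept 181 cells of cluster 9. The 32 named ratios moved by less than their counting interval without doublets, without cells under 1000 UMIs or over 20% mitochondrial UMIs, and with totals that left out the 20 most abundant genes. With the integrated division Top2a moved from 1.99-fold to 0.393-fold and to 3.71-fold, and against the median of the other clusters it was at 4.31-fold.

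The section comparison depended on single sections. Leaving out 1 section at a time gave 3 to 1311 genes higher in DES and 0 to 1508 lower. Without CO section 1 there were 1311 and 1508, without CO section 2 there were 1148 and 1188, without DES section 1 there were 14 and 0, and without DES section 2 there were 3 and 0. The lone section left was assumed to vary like the other group. Where edgeR called 0 lower, 894 and 871 genes had an unadjusted p under 0.05, and DESeq2 on all 4 sections called 807 higher and 954 lower. The cause was not tested. Fos ranged from -1.96 to 0.67 on the log2 scale, 0.67 without CO section 1, and passed only without CO section 2 (edgeR adjusted p = 0.00477). Dnajb1 passed in DESeq2 (adjusted p = 0.0220). The replicate number as a block, added after seeing the data, gave 298 genes higher and 229 lower, and Junb and Cldn4 no longer passed (edgeR adjusted p = 0.0647 and 0.0571, log2 fold changes of 1.137 and 2.22). The numbers tie no mice together, and same-numbered sections did not deviate together (r = -0.0094 over 14098 genes). With 1 DES library of 4 pooled mice, the spread of cluster 9 between mice is unknown.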
